A study of Mus musculus with 2 samples.

Results

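The cell cycle genes described here are 47 genes of DNA replication and mitosis. They were chosen from a list of gene symbols, and every probe set whose platform annotation gives exactly 1 of those symbols was taken. Of the 47 genes, 46 had at least 1 such probe set, 89 probe sets in all, among 12393 genes with 20380 probe sets on the array. They were divided by role into 16 replication genes and 31 mitosis genes.

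RNA came from splenic CD4+ T cells of DBA/1 mice, the strain susceptible to arthritis, and of C57BL/6 mice, the resistant strain. Both groups had been immunised with glucose-6-phosphate isomerase (GPI) and were sampled on day 7. Cells were isolated by magnetic sorting, and 3 µg of total RNA per sample was labelled and hybridised to 1 array per strain. The sources used here do not give the age or sex of the mice, nor how many mice each RNA sample came from. No unimmunised mice were analysed here, so the strain difference cannot be told apart from a difference in the response to GPI.

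A gene that a T cell needs only for dividing is transcribed in waves. Around the start of S phase, E2F factors switch on the genes that license origins, build nucleotides and copy DNA. Later, in G2 and mitosis, the MuvB complex with B-Myb and FoxM1 drives cyclins, kinases, kinetochore and spindle genes, many of which carry a CHR element and CCAAT boxes in their promoters. Resting spleen T cells express little of the second group, and antigen-driven proliferation turns both on.

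The deposited value of a probe set is its MAS5 signal, an intensity on a linear scale. The floor below which signals were not compared was the median of the array, 37.6 in DBA/1 and 38.04 in C57BL/6. A gene is represented by its brightest probe set, and differences are given as the log2 ratio of DBA/1 over C57BL/6. Of the 46 measured genes, 43 had a signal above the floor on at least 1 array: 15 replication and 28 mitosis genes. Tyms (thymidylate synthase), Cenpe (a kinetochore kinesin) and Foxm1 (a transcription factor of the mitotic wave) were under the floor on both arrays, and Ccnb1 (cyclin B1) had no probe set named for it alone. Each strain has a single array, so no test could be made, no replicate error is known, and all differences describe these 2 arrays. The spread of the log2 ratio between a pair of probe sets of 1 gene, over 2325 genes, corresponds to an SD of 0.31 per probe set and covers probe error only.

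Most mitosis genes had higher signals in DBA/1, and replication genes differed less. In RNA from many cells, a larger number of dividing cells and more of these transcripts per cell cannot be told apart. The 28 usable mitosis genes had a median log2 ratio of 0.75 (1.68-fold), with 27 higher in DBA/1 and 1 lower. The 15 usable replication genes had a median of 0.33 (1.26-fold), with 11 higher and 4 lower. Over all 6936 genes above the floor the median was 0.10, and 60.6% had a log2 ratio above 0. At least 1.5-fold higher in DBA/1 were 20 of the 28 mitosis genes (71.4%) and 3 of the 15 replication genes (20.0%), against 11.8% of all genes. At least 2-fold higher were 4 mitosis genes (14.3%) and 0 replication genes, against 3.84% of all genes. No usable gene of either group was 1.5-fold lower, a size that 5.97% of all genes reached, nor 2-fold lower, which 1.9% reached. The genes nearest to these limits were Mki67 (1.53-fold) and Rrm1 (1.52-fold) inside and Cdc45 (1.498-fold) and Stmn1 (1.496-fold) outside 1.5-fold, and Kif20a (2.01-fold) inside and Mad2l1 (1.998-fold) outside 2-fold.

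**Figure D1:**
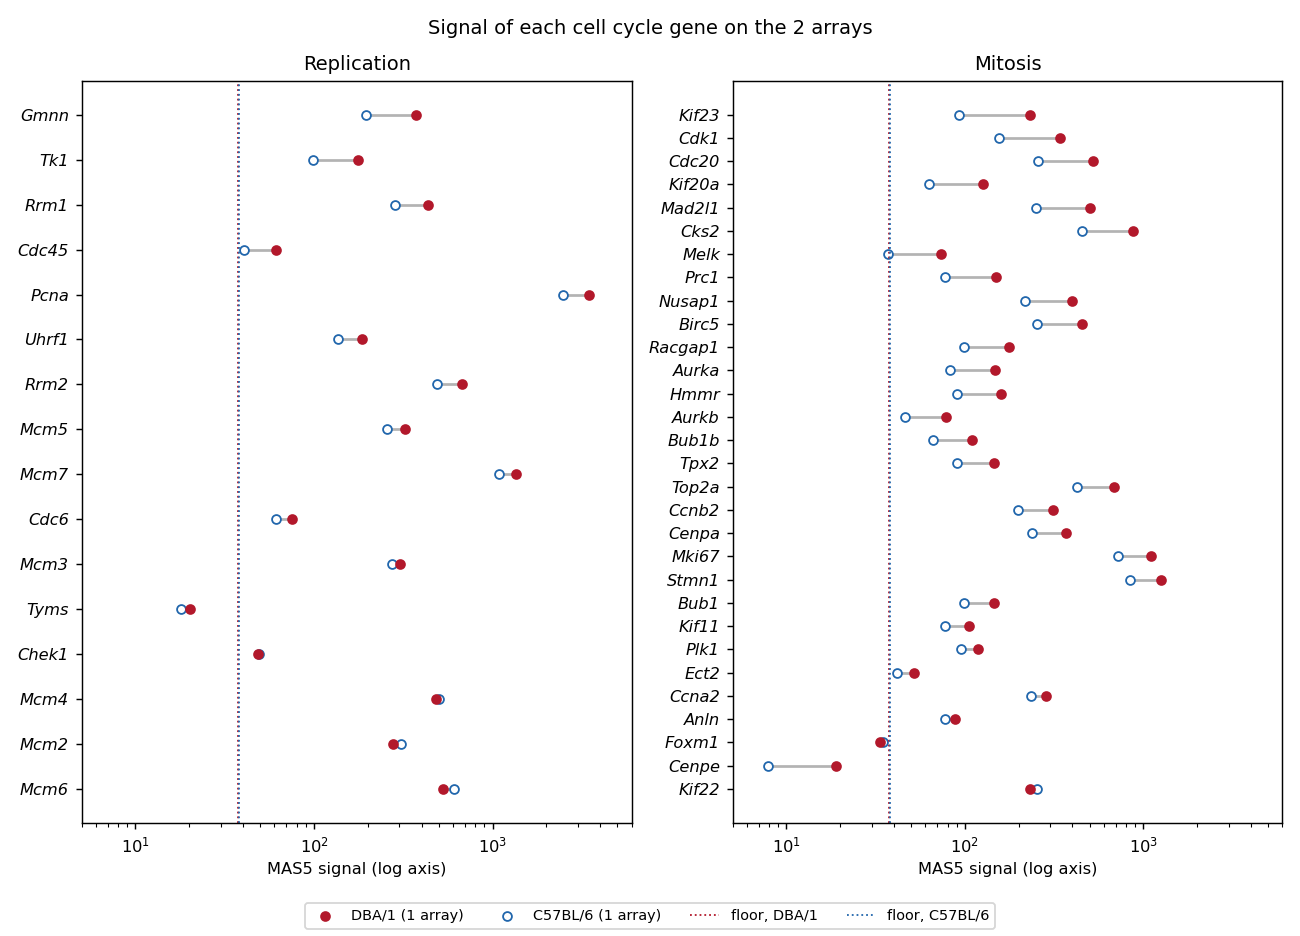
MAS5 signal (log axis) of the brightest probe set of each measured cell cycle gene in DBA/1 (filled red) and C57BL/6 (open blue), 1 array each, replication genes on the left and mitosis genes on the right, ordered by log2 ratio. Dotted lines mark each array's floor. The red point lies to the right of the blue one for 27 of the 28 mitosis genes above the floor, while Mcm4, Mcm2, Mcm6 and Chek1 show no such shift.

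The helicase subunits Mcm2 to Mcm7 form the ring that is loaded on origins in G1 and unwinds DNA in S phase. Mcm2 read 278 in DBA/1 and 305 in C57BL/6. Mcm4 read 482 in DBA/1 and 500.4 in C57BL/6. Mcm6 read 529 in DBA/1 and 609 in C57BL/6. These 3 subunits were thus slightly lower in DBA/1, with log2 ratios of -0.14, -0.06 and -0.20. Mcm3 read 302 in DBA/1 and 275 in C57BL/6. Mcm5 read 322 in DBA/1 and 256 in C57BL/6. Mcm7 read 1353 in DBA/1 and 1088 in C57BL/6. These were slightly higher in DBA/1, with log2 ratios of 0.14, 0.33 and 0.31, so the 6 subunits of this 1 complex had a median of 0.04 and none was 1.5-fold apart. The sign of this median is not firm: it was -0.04 after median centring, -0.07 after quantile normalization, -0.07 after lowess and -0.06 without probe sets whose suffix (_s_at, _x_at or _a_at) marks sequence shared between transcripts.

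Loading of the helicase depends on Cdc6, is blocked by geminin (Gmnn) and is followed by recruitment of Cdc45. Cdc6 read 74.999 in DBA/1 and 61.4 in C57BL/6, a log2 ratio of 0.29. Gmnn read 371 in DBA/1 and 197 in C57BL/6, which at 0.92 (1.89-fold) was the replication gene with the highest log2 ratio. Cdc45 read 60.9 in DBA/1 and 40.7 in C57BL/6, a log2 ratio of 0.58, with the C57BL/6 signal close to the floor. All 3 were higher in DBA/1, with the largest ratio for geminin, which accumulates through S and G2 phase.

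Enzymes that supply nucleotides were higher in DBA/1 where they could be measured. Rrm1, the large subunit of ribonucleotide reductase, read 432 in DBA/1 and 283 in C57BL/6 (log2 ratio 0.61), and its second probe set gave 0.84. Its small subunit Rrm2 read 672 in DBA/1 and 490.4 in C57BL/6 (0.45), while its other probe sets gave 0.85 and -0.01. Tk1, thymidine kinase of the salvage pathway, read 176 in DBA/1 and 98.8 in C57BL/6 (0.83). Tk1 and both Rrm1 probe sets thus lay well above 0, while the size of the Rrm2 difference depends on the probe set that is read.

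Pcna, the sliding clamp of the replication fork, read 3456 in DBA/1 and 2492 in C57BL/6 (log2 ratio 0.47). Uhrf1, which guides maintenance DNA methylation at the fork, read 187 in DBA/1 and 136 in C57BL/6 (0.46), with a second probe set at 0.68. Chek1, the checkpoint kinase of stalled forks, read 48.3 in DBA/1 and 49.3 in C57BL/6 (-0.03), while its second probe set, under the floor in C57BL/6, gave 0.15. Leaving out Mcm2 to Mcm7, 8 of 9 usable replication genes were higher in DBA/1 (88.9%, against 60.6% of all genes) and the median was 0.47.

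RefSeq promoter sequences (GRCm38.p6, from 250 bases before to 50 bases after a gene's start) were available for 14 of the 16 replication genes and 25 of the 31 mitosis genes. They were searched on both strands for 3 motifs: the E2F site in the forms TTTGGCGC, TTTCGCGC, TTTGCCGC and TTTCCCGC, the CHR element TTTGAA, and the CCAAT box CCAAT. Matches of 1 motif may overlap. An E2F form was found in 6 of 14 replication promoters (42.9%), in 1 of 25 mitosis promoters (4.0%), in 5.31% of the promoters of 5721 genes above the floor and in 2.6% of all 27025 genes with a promoter. The 6 sites below, the match nearest to the start of each gene, show the motif of the replication group. Each is a window of 30 bases written 5′ to 3′ on the gene's strand, with the E2F letters in capitals, and overlapping matches run together.
Uhrf1, chr17:56304117-56304146, + strand: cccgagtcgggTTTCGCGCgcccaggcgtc
Mcm5, chr8:75109349-75109378, + strand: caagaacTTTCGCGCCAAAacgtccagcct
Mcm7, chr5:138171849-138171878, - strand: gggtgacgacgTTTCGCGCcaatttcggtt
Cdc6, chr11:98908002-98908031, + strand: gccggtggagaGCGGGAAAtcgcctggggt
Mcm3, chr1:20820275-20820304, - strand: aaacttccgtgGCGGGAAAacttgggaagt
Mcm6, chr1:128359734-128359763, - strand: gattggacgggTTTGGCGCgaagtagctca

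Of these 6 genes, 4 belong to the Mcm2 to Mcm7 helicase, the subunits with the small differences given above. The 6 replication genes with an E2F match had a median log2 ratio of 0.30, and the 7 usable ones with a promoter but no match had 0.47. A match is a string of letters and not a shown binding site.

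The mitosis group opens with the kinase that starts mitosis and its partners. Cdk1, the mitotic kinase itself, read 339.7 in DBA/1 and 154 in C57BL/6, a log2 ratio of 1.14 (2.203-fold). Ccnb2 (cyclin B2) read 310.1 in DBA/1 and 197 in C57BL/6 (0.65). Ccna2 (cyclin A2), which acts from S phase on, read 284 in DBA/1 and 233 in C57BL/6 (0.28), with a second probe set at 0.45. The kinase thus differed more between the arrays than either measured cyclin. Cks2, a small protein that binds Cdk1, read 876 in DBA/1 and 451 in C57BL/6 (0.96), and its second probe set gave nearly the same value, 0.91. Plk1, polo-like kinase 1 of mitotic entry, read 119 in DBA/1 and 95.5 in C57BL/6 (0.31). Melk, a kinase expressed in dividing cells, read 73.3 in DBA/1 while its C57BL/6 signal, 37.1, did not reach the floor, so it was at least 1.93-fold higher in DBA/1.

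The spindle checkpoint holds anaphase until all chromosomes are attached, by keeping Cdc20 from activating the anaphase-promoting complex. Cdc20 read 518 in DBA/1 and 256 in C57BL/6 (log2 ratio 1.02, 2.02-fold), and its second usable probe set gave 0.73. Mad2l1, the checkpoint protein that binds Cdc20, read 499 in DBA/1 and 249.7 in C57BL/6, a log2 ratio of 0.999. Bub1b (BubR1) read 109.9 in DBA/1 and 66.5 in C57BL/6 (0.73). All 3 were higher in DBA/1, by 1.65-fold to 2.02-fold. Bub1, the kinase that recruits them to kinetochores, read 145 in DBA/1 and 99.03 in C57BL/6 (0.55).

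Aurora kinases and their partners were at least 1.5-fold higher in DBA/1 as deposited, a size that Aurkb (0.51) and Tpx2 (0.54) did not reach with log2(signal + 32), nor Aurkb (0.12) with the floor at percentile 60. Aurka, at spindle poles, read 147 in DBA/1 and 82.04 in C57BL/6 (log2 ratio 0.84). Its activator Tpx2 read 146 in DBA/1 and 90.5 in C57BL/6 (0.69). Aurkb, the kinase of the chromosomal passenger complex, had a low signal of 78.6 in DBA/1 and 45.9 in C57BL/6 (0.78), with its second probe set at 0.87. Birc5 (survivin), which places Aurkb at centromeres, read 454 in DBA/1 and 252 in C57BL/6 (0.85). The 4 ratios lay within a narrow range, from 0.69 to 0.85.

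Spindle and microtubule genes were more mixed. Nusap1, which bundles spindle microtubules, read 398 in DBA/1 and 217 in C57BL/6 (log2 ratio 0.87). Hmmr, a spindle assembly protein, read 159.9 in DBA/1 and 90.1 in C57BL/6 (0.83), with dimmer probe sets at 0.58 and, under the floor in C57BL/6, 0.37. Kif11 (Eg5), the motor that separates spindle poles, read 106 in DBA/1 and 77.02 in C57BL/6 (0.46), with other probe sets at 0.37 and 0.67. These 3 were higher in DBA/1 in all their usable probe sets. Stmn1 (stathmin), which destabilises microtubules, read 1258 in DBA/1 and 841 in C57BL/6 (0.58), and a probe set near the floor gave 0.13. Kif22, a motor on chromosome arms, read 231 in DBA/1 and 254 in C57BL/6 (-0.14). It was the mitosis gene lower in DBA/1, yet its other probe sets gave 0.79 and 1.08, the last with the C57BL/6 signal under the floor, so the direction for Kif22 depends on the probe set.

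The genes of the central spindle and of cytokinesis included the member with the largest ratio. Kif23 (MKLP1), the motor of the centralspindlin complex, read 231 in DBA/1 and 92.6 in C57BL/6 (log2 ratio 1.32, 2.49-fold). A dimmer Kif23 probe set, under the floor in C57BL/6, gave 0.57. Its partner Racgap1 read 176 in DBA/1 and 98.3 in C57BL/6 (0.84), against 0.16 in its second probe set. Both components of centralspindlin were higher in DBA/1, by amounts that differed between their probe sets. Kif20a (MKLP2) read 127 in DBA/1 and 62.99 in C57BL/6 (1.01). Prc1, which crosslinks central spindle microtubules, read 148 in DBA/1 and 77.1 in C57BL/6 (0.94), against 0.17 in its second probe set. Ect2, which activates RhoA at the cleavage furrow, read 51.9 in DBA/1 and 41.8 in C57BL/6 (0.31). Anln (anillin), a scaffold of the contractile ring, read 88.03 in DBA/1 and 77.04 in C57BL/6 (0.19).

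Genes of the mitotic chromosome were close to each other. Mki67, the Ki-67 protein that coats mitotic chromosomes, read 1097 in DBA/1 and 717 in C57BL/6 (log2 ratio 0.61). Top2a, the topoisomerase that untangles sister chromatids, read 687 in DBA/1 and 426 in C57BL/6 (0.69). Cenpa, the histone variant of centromeres, read 367 in DBA/1 and 237 in C57BL/6 (0.63). The ratios of these genes ran from 1.53-fold to 1.61-fold.

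**Figure D2:**
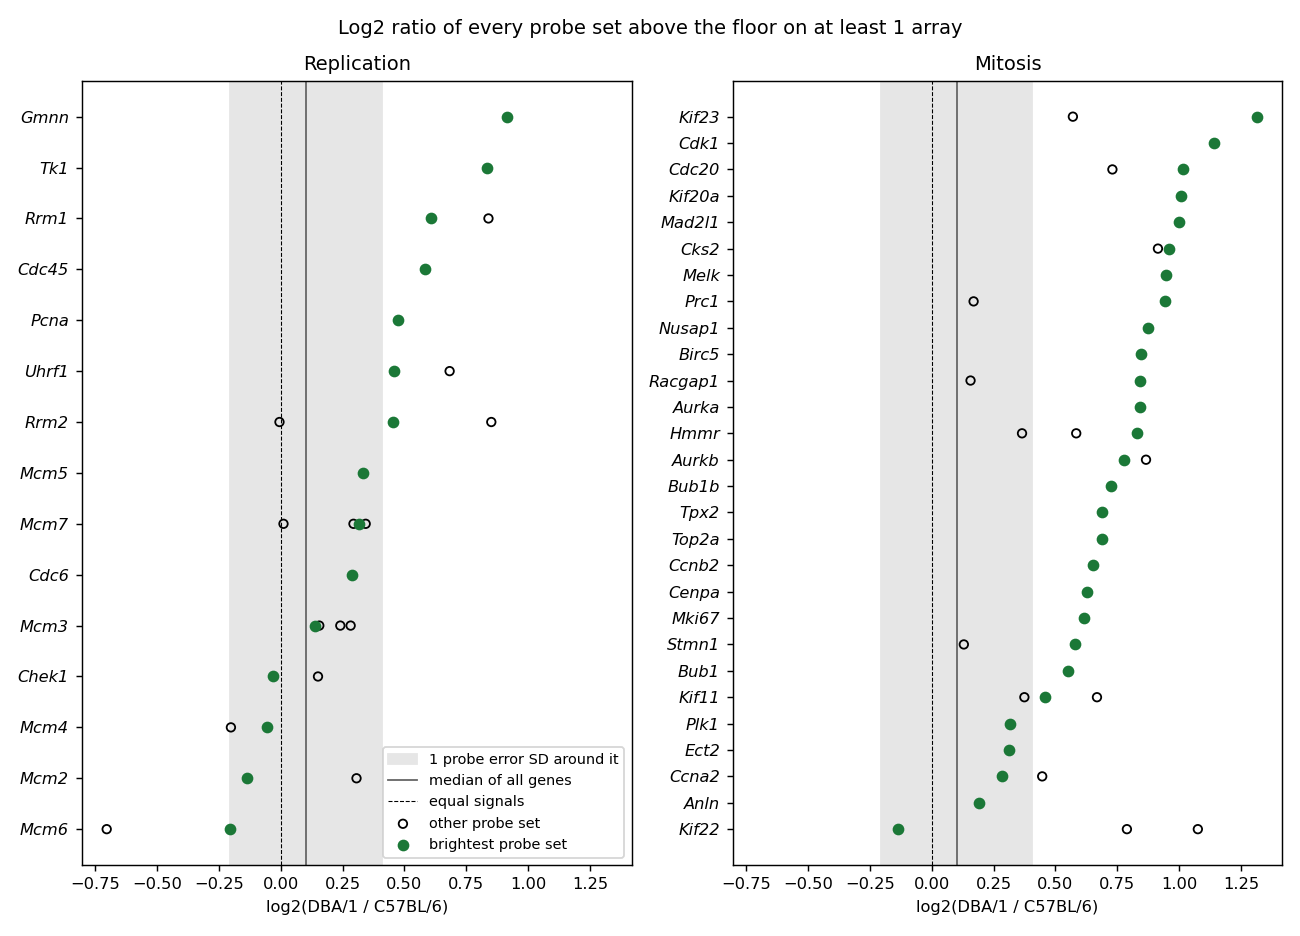
Log2 ratio of DBA/1 over C57BL/6 for every probe set above the floor on at least 1 array, replication genes on the left and mitosis genes on the right; filled points are the brightest probe set of a gene and open points its other probe sets. The solid line is the median of all genes (0.10) and the grey band 1 SD of probe error (0.31) to either side of it. Filled points of 23 of 28 mitosis genes and 7 of 15 replication genes lie to the right of the band.

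Probe sets of the same gene mostly pointed the same way. Above both arrays' floors were 38 mitosis probe sets, of which 37 were higher in DBA/1 and 24 reached 1.5-fold; their median log2 ratio was 0.69. Over the 28 such replication probe sets, 21 were higher in DBA/1, 7 lower and 6 at least 1.5-fold higher, with a median of 0.30. Counted by gene, 60.6% of all 6936 genes were higher and 11.8% at least 1.5-fold higher. The shares over all probe sets were not computed, and a gene with several probe sets counts more than once here. Among genes with several such probe sets, the sign was the same in all of them for 9 of 10 mitosis genes, Kif22 being the exception, and for 6 of 8 replication genes. The exceptions there were Rrm2 and Mcm2, whose second probe set gave 0.31. How often the signs agree over all genes was not computed. With 37 of the 38 mitosis probe sets higher, equal signs within a mitosis gene are no separate result. Both Mcm6 probe sets were lower in DBA/1 (-0.20 and -0.70), as were both of Mcm4 (-0.06 and -0.20). The 4 probe sets each of Mcm3 and Mcm7 gave 0.14 to 0.28 and 0.01 to 0.34. In the plot of probe set ratios, 23 of 28 mitosis genes (82.1%) and 7 of 15 replication genes (46.7%) lay more than 1 probe error above the median of all genes, as did 21.1% of all 6936 genes.

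The mitosis median exceeded the replication median by 0.42 on the log2 scale. Of the 28 mitosis genes, 23 lay above the replication median, which is the value of Mcm5, the highest of the Mcm2 to Mcm7 subunits. Of the 15 replication genes, 2 (Gmnn and Tk1) lay above the mitosis median. The ranges overlapped, from -0.14 to 1.32 for mitosis and from -0.20 to 0.92 for replication genes. No test was made between the groups, since genes of 1 programme are not independent replicates.

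The CHR element was found in 17 of the 25 mitosis promoters (68.0%), in 2 of the 14 replication promoters (14.3%), in 14.1% of the promoters of genes above the floor and in 20.2% of all promoters. Promoters with at least 1 CCAAT box made up 80.0% of the mitosis and 71.4% of the replication group, against 42.9% of those of genes above the floor. In 16 of the 17 mitosis genes the CHR match nearest to the start lay within 50 bases of it. In 10 of the 17 that match began after the start, where the searched window ends at 50 bases and no match can lie farther. The distance was not computed for genes that are no members, so no preference of position is drawn from it. The windows below show the CHR match nearest to the start for 6 mitosis genes. These had the highest log2 ratios among those that hold one. They are written like the E2F sites, with the CHR letters in capitals.
Kif23, chr9:61946780-61946809, - strand: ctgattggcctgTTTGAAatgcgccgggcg
Cdk1, chr10:69352910-69352939, - strand: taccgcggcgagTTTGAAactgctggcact
Cdc20, chr4:118437344-118437373, - strand: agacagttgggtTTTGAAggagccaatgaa
Prc1, chr7:80294434-80294463, + strand: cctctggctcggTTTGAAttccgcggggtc
Racgap1, chr15:99651634-99651663, - strand: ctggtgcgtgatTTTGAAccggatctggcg
Aurka, chr2:172370521-172370550, - strand: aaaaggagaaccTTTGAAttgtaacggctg

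Cdk1 and Mcm6 are shown as examples by the 120 bases before their starts, with matches in capitals. The Cdk1 stretch holds 2 CHR elements and 2 CCAAT boxes (read as ATTGG on the gene's strand). The Mcm6 stretch holds 3 E2F matches, of which 2 overlap, and 2 CCAAT boxes. Cdk1 is not free of E2F matches: it is the 1 mitosis gene of 25 with such a match. Its whole searched window holds 3 CCAAT boxes and 1 E2F match, and that E2F match is not wholly inside the printed bases.
Cdk1, chr10:69352913-69353032, - strand: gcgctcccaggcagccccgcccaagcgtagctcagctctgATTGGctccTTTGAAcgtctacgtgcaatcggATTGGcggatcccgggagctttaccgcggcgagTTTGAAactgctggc
Mcm6, chr1:128359706-128359825, - strand: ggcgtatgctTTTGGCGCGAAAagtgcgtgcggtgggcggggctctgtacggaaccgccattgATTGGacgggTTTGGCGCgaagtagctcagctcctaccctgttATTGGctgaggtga

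The log2 ratio was 1.14 for Cdk1 and -0.20 for Mcm6. Within the mitosis group the match did not mark the larger differences: the 17 usable genes with a CHR element had a median log2 ratio of 0.69, and the 6 usable ones with a promoter but no match, among them Mad2l1, Cks2 and Birc5, had 0.91.

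**Figure D3:**
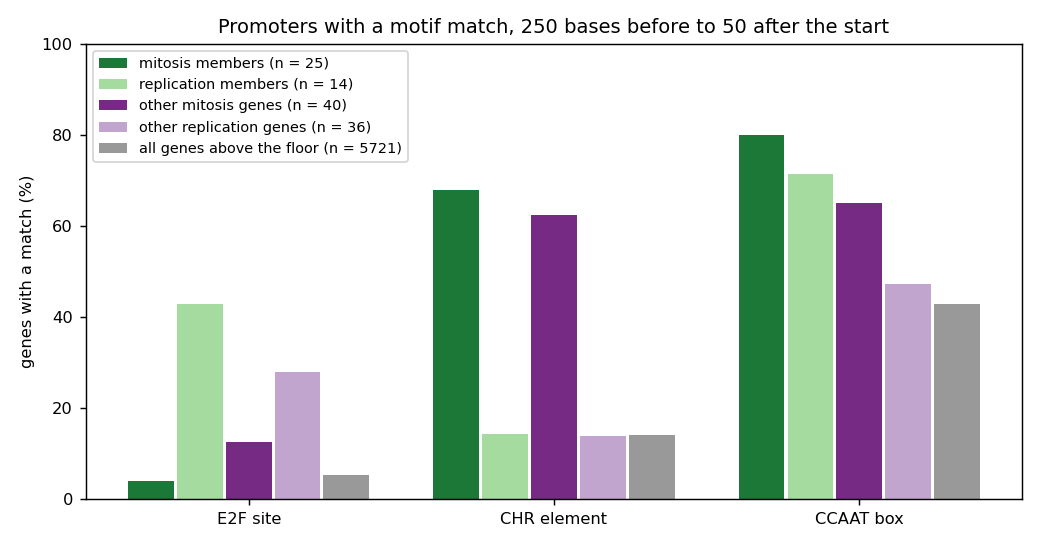
Share of genes (%) whose RefSeq promoter holds an E2F site, a CHR element or a CCAAT box, for mitosis and replication genes, further genes of both kinds and all genes above the floor, with the number of genes with a promoter in the legend. E2F sites were found in 42.9% of replication and 4.0% of mitosis promoters, CHR elements in 14.3% and 68.0%.

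Cell cycle genes beyond the 47 showed the same order with smaller medians. Of 34 further usable mitosis genes (condensins, kinetochore proteins, kinesins and others), 28 were higher in DBA/1 (82.4%), 41.2% at least 1.5-fold. Of all genes 60.6% were higher and 11.8% at least 1.5-fold higher. The median log2 ratio of these further mitosis genes was 0.40. Ckap2, a spindle protein, read 128 in DBA/1 and 51.5 in C57BL/6 (1.32). Spc25, of the Ndc80 kinetochore complex, read 163 in DBA/1 and 72.95 in C57BL/6 (1.16). Cep55, needed for the final cut between daughter cells, read 184 in DBA/1 and 89.5 in C57BL/6 (1.04). These 3 were as far apart as the mitosis genes with the largest ratios described above. Of 39 further usable replication genes (origin recognition complex, polymerases, clamp loader and others), 31 were higher (79.5%), 17.9% at least 1.5-fold, with a median of 0.24. Tipin, of the fork protection complex, read 561 in DBA/1 and 269 in C57BL/6 (1.06). Gins1, which joins Cdc45 and the Mcm ring in the active helicase, read 114 in DBA/1 and 56.6 in C57BL/6 (1.01).

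For 25 usable genes that act before S phase or hold cells out of the cycle the median was 0.14. Of them 15 were higher and 10 lower in DBA/1, and 12.0% were at least 1.5-fold higher, close to the 11.8% of all genes. Rbl2 (p130), a pocket protein that represses cell cycle genes in resting cells, read 788 in DBA/1 and 398 in C57BL/6 (log2 ratio 0.99). E2f8, a repressor of the E2F family, read 78.5 in DBA/1 and 43.7 in C57BL/6 (0.84). E2f5 was under the floor in DBA/1 at 36.1 and read 68.4 in C57BL/6, at least 1.82-fold lower in DBA/1. Among 15 usable chromatin genes of dividing cells, 13 were higher in DBA/1 (86.7%) and the median was 0.24. Asf1b, a histone chaperone of S phase, read 234 in DBA/1 and 121 in C57BL/6 (0.96), and the chromatin protein Hmgb2 read 1921 in DBA/1 and 1243 in C57BL/6 (0.63).

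Markers of neutrophils, granulocyte precursors, B cells, monocytes and macrophages, and plasma cells were mostly higher in DBA/1 too, and their part in the cell cycle difference was not tested. The share of all genes above the floor that were higher, to be set beside the counts below, is 60.6%. Neutrophil markers were higher in DBA/1 in 11 of 11 usable genes (Cxcr2 was under the floor on both arrays), with a summed signal of 35358 in DBA/1 and 10919 in C57BL/6 and a median log2 ratio of 1.79. Granulocyte precursor markers, of cells that divide, were higher in 5 of 6, with a summed signal of 1078 in DBA/1 and 442 in C57BL/6 and a median of 1.37. Ctsg (cathepsin G) read 149 in DBA/1 and 42.5 in C57BL/6, and Prtn3 (proteinase 3) 248 in DBA/1 and 62.5 in C57BL/6. These 2 had the largest ratios of the list, while Gfi1 was the gene lower in DBA/1, at 55.9 against 96.1 in C57BL/6 (log2 ratio -0.78). Markers of B cells were higher in 8 of 9 (summed signal 1799 in DBA/1 and 972 in C57BL/6, median 1.09), with Pax5 and Ebf1 under the floor on both arrays. The exception, Cd72, had the largest absolute log2 ratio of this list, -1.70, and read 44.97 in DBA/1 and 145.9 in C57BL/6. With the floor at percentile 60 the B cell median was 0.59. Monocyte and macrophage markers were higher in 13 of 13, with a median of 0.86 and a summed signal of 7169.8 in DBA/1 and 3224 in C57BL/6. Plasma cell markers were higher in 4 of 4, with a median of 0.64 and a summed signal of 1906 in DBA/1 and 1322 in C57BL/6, while Sdc1, Tnfrsf17 and Derl3 were under the floor on both arrays.

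Markers of erythroid precursors, another dividing cell of the mouse spleen, were mixed. Of 12 usable genes 6 were higher in DBA/1, the median was -0.06 and the summed signal was 3300.3 in DBA/1 and 3141 in C57BL/6. Those with the largest absolute log2 ratios were Car1 (0.91), Hbb-b2 (-0.74) and Klf1 (0.46). The part of these cells in the cell cycle difference was not tested. Of the germinal centre B cell list only 3 genes had a probe set of their own; Mybl1 and Gcsam were under the floor on both arrays and Fas read 178 in DBA/1 and 212 in C57BL/6. T cell genes were above the floor in 10 of 10 measured genes, Cd4 and Cd3e among them. Their summed signal was 14215 in DBA/1 and 15569 in C57BL/6, with a median of -0.08. Passing the floor does not check the purity of the sort, since markers of other cell types passed it too. Of the 10 T cell genes, 2 were higher and 8 lower in DBA/1. Those with the largest ratios were Zap70, a kinase of T cell receptor signalling (389 in DBA/1 and 619 in C57BL/6, log2 ratio -0.67), Thy1 (-0.54) and the co-stimulatory receptor Cd28 (-0.30). Genes of the CD8 T cell list were lower in DBA/1 in 7 of 7 (summed signal 783 in DBA/1 and 2082 in C57BL/6, median -1.27). Besides the CD8 chains this list holds cytotoxic lymphocyte genes, so it is not specific to CD8 T cells. Its largest absolute log2 ratios were those of Cd8b1 (-2.41, under the floor in DBA/1), Nkg7 (-1.92) and Klrd1 (-1.69). NK cell markers were higher in 2 of 4 usable genes, with a median of 0.24, while Ncr1 and Klra8 were under the floor on both arrays. The summed signal of the list was 2593 in DBA/1 and 1529 in C57BL/6. Most of it came from Tyrobp (2381 in DBA/1 and 1343 in C57BL/6), which is not specific to NK cells. Tyrobp (log2 ratio 0.83) and Gzmb (0.91) were higher in DBA/1, and Prf1 (-0.49) was lower. The remaining gene, under the floor in DBA/1, was also lower. Over the 3 genes that passed both floors the median was 0.83, the value of Tyrobp. T cell activation markers had a median of 0.23 over 11 usable genes, with a summed signal of 3301 in DBA/1 and 3026 in C57BL/6. Of these 11 genes, 7 were higher in DBA/1 (63.6%, close to the 60.6% of all genes). Icos, a co-stimulatory receptor, read 392 in DBA/1 and 231 in C57BL/6 (log2 ratio 0.77), and Ifng (interferon gamma) read 66.01 in DBA/1 and 173 in C57BL/6 (-1.39).

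**Figure D4:**
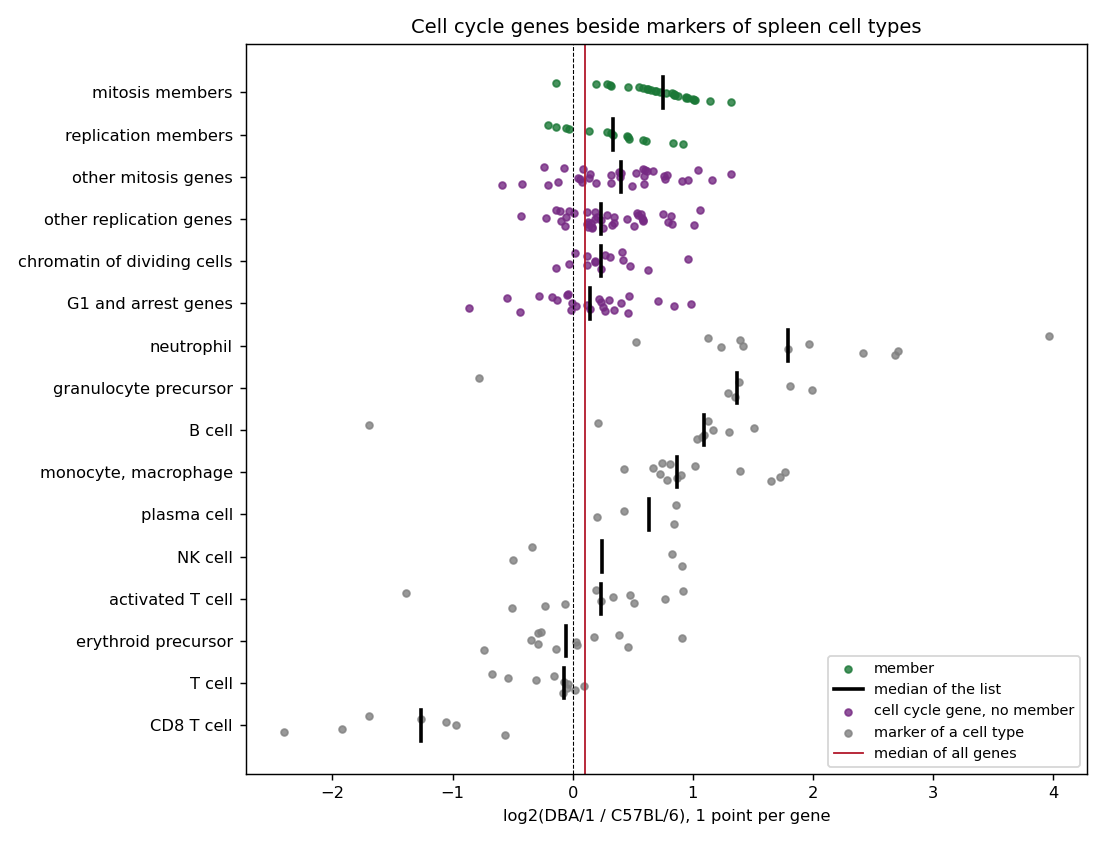
Log2 ratio of DBA/1 over C57BL/6 for each usable gene of the mitosis and replication groups, of further cell cycle lists and of marker lists for spleen cell types; black bars are list medians and the red line the median of all genes (0.10). The mitosis median (0.75) lies below those of the neutrophil (1.79), granulocyte precursor (1.37), B cell (1.09) and monocyte and macrophage (0.86) lists and above that of the T cell list (-0.08). With the floor at percentile 60 the B cell median (0.59) lies below the mitosis median (0.69), and with a higher signal at percentile 75 the monocyte and macrophage median (0.81) lies below it (0.84).

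The order of both groups was the same under each scaling of the arrays. As deposited, the median log2 ratio of probe sets that passed both floors was 0.08. After median centring, quantile normalization and lowess on intensity, the mitosis median was 0.67, 0.71 and 0.71 and the replication median 0.25, 0.24 and 0.27, against all-gene medians of 0.02 under each. The mitosis median stayed above the replication median under all 11 alternatives, by 0.27 to 0.47. Median centring subtracts the same value from every ratio and cannot change this gap, which stayed at 0.42. Removing the floor left it at 0.42 too. All settings use the same 2 arrays, so they say nothing on how far other mice would differ. The number of mitosis genes at least 2-fold higher was less firm, at 2 after each of the 3 scalings, since Kif20a and Cdc20 lie just above 2-fold as deposited.

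**Figure D5:**
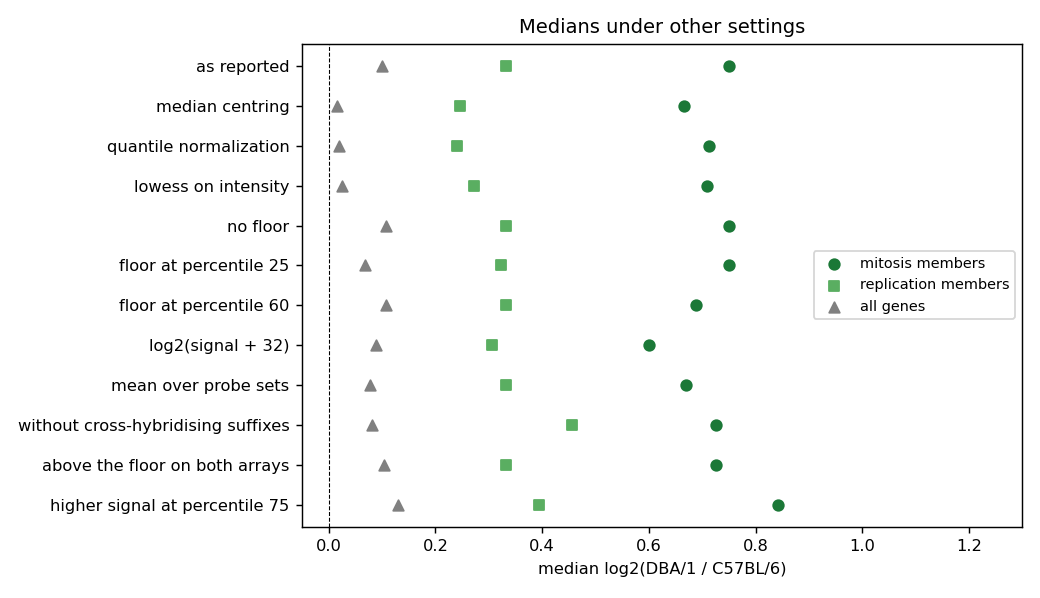
Median log2 ratio of the mitosis genes (circles), replication genes (squares) and all genes (triangles) as reported and under 11 other settings, 1 row each. The mitosis median runs from 0.60 to 0.84, the replication median from 0.24 to 0.46 and the all-gene median from 0.02 to 0.13.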

How the data were processed

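The deposited intensities are probe set signals on a linear scale, 1 column per array; MAS5 is named in the submitters' processing notes, without a version or scaling target. Of 22690 probe sets in the file, 64 are controls; 20380 of the others had 1 gene symbol in the platform annotation, 691 several and 1555 none. Probe sets with several symbols were not used. The members, the gene lists and the rule for named genes (all members, and at most 3 genes with the largest ratios of each further list) were chosen with earlier results of these data known. Signals under an array's median were set to it, a ratio with 1 such side is a bound ("at least"), and a gene entered if 1 signal exceeded the floor. The grouping of members by role within each group followed their known functions. Promoters were matched to genes by symbol from a RefSeq table of GRCm38.p6; no source used here names the build behind the array. The computation was tested on simulated data, with known folds put only into genes well above the floor. Ratios of dim members near the floor were not covered by it. Python 3.11.15, numpy 2.4.6, pandas 2.3.3, statsmodels 0.14.6 and matplotlib 3.10.9 were used. The number of arrays limits the precision.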

Additional observations from a re-analysis of the deposited data

How the results depend on the processing

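The 11 alternatives changed the scaling (3), the floor (3), the pseudocount (32 in place of a floor), the probe sets of a gene (2) and the filter on low signals (2). The mitosis median ran from 0.60 to 0.84 and the replication median from 0.24 to 0.46. Mitosis genes at least 2-fold higher in DBA/1 numbered 4 as deposited, 2 after median centring, quantile normalization, lowess or averaging of probe sets, and 1 with log2(signal + 32). Those at least 1.5-fold higher numbered 20 of 28 as deposited and 12 of 15 with a higher signal at percentile 75. They numbered 13 of 19 when probe sets with the suffixes _s_at, _x_at and _a_at, which mark sequence shared between transcripts, were left out. Under the percentile 75 and suffix settings fewer genes are usable. Over the same 28 genes the number was 17 after median centring, 16 after quantile normalization or lowess and 15 with log2(signal + 32). The erythroid median, -0.06 as deposited, was 0.024 without those suffixes and 0.017 at percentile 75. The NK cell median was 0.83, the value of Tyrobp, in place of 0.24 without those suffixes or with both arrays above the floor. The B cell median was 0.59 in place of 1.09 with the floor at percentile 60. Of 441 values of single members, 432 moved by less than the probe error and 9 by more. Part of this was fixed in advance, so the 432 are no measure of robustness. Removing or lowering the floor and the 2 filters on low signals leave the ratio of a gene above both floors as it was. Median centring moves all ratios by the same 0.08, less than the probe error. Without those suffixes another probe set stands for the gene, giving 1.08 in place of -0.14 for Kif22 and 0.13 in place of 0.58 for Stmn1. With the floor at percentile 60, Aurkb gave 0.12 in place of 0.78. Averaging probe sets turned the sign of Kif22 (0.58), Mcm2 (0.08) and Chek1 (0.06). No paired analysis was possible because there is 1 array per strain, so leaving out an array was not possible either.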
